A study of Mus musculus with 180 samples.

Results

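The genes described here are 6 metabotropic glutamate receptor genes, Grm2, Grm3, Grm4, Grm5, Grm7 and Grm8, out of 54429 genes in the deposited count table. They were chosen by their symbols, with earlier results of these data known. They were read in ribosome-bound and total RNA from the hippocampus of 30 male mice. All mice came from a cross of 2 lines. One line carries the transgene Tg(Camk2a-cre)T29-1Stl on a B6.Cg background, and the other is B6N.129-Rpl22tm1.1Psam/J. In their offspring, Cre under the Camk2a promoter switches on an HA-tagged ribosomal protein Rpl22 in excitatory neurons. From each mouse RNA was taken in 3 ways, each from a cytosolic fraction and from a pelleted, membrane-bound fraction, which gave 6 library types and 180 libraries. The Camk2a capture pulled down HA-tagged ribosomes, the pS6 capture pulled down ribosomes that carry phosphorylated S6 (a mark of recently active cells), and the input was not captured. The mice formed 4 groups by training and sleep. There were 8 untrained mice left to sleep (NoCFC), 7 untrained mice with sleep deprivation (SD), 8 mice given contextual fear conditioning (CFC) and left to sleep, and 7 mice given CFC and SD. The pS6 capture and the input are limited to no cell type, whereas the Camk2a capture is limited to cells in which this Cre line is active. All 4 groups carry both transgenes, so none is a wild-type control.

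Metabotropic glutamate receptors are G protein-coupled receptors that sense glutamate and act more slowly than the ion channel receptors. Group I receptors couple to Gq and phospholipase C, lie mostly around postsynaptic sites and feed long-term depression and dendritic protein synthesis; Grm5, which encodes mGluR5, stands for this group here. Group II (Grm2, mGluR2; Grm3, mGluR3) and group III (Grm4, mGluR4; Grm7, mGluR7; Grm8, mGluR8) couple to Gi/o and lower cyclic AMP. Grm2 is known from dentate granule cells and their mossy fibres, Grm3 from both neurons and astrocytes, and Grm7 from the active zones of nerve terminals. As multi-pass membrane proteins, all of them are made on ribosomes docked to the endoplasmic reticulum.

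On GRCm38 with GENCODE annotation, the group I gene Grm5 lies on chromosome 7 from 87584168 to 88134907 on the plus strand and has 10.2 kb of merged exons. Of the group II genes, Grm2 lies on chromosome 9 from 106643095 to 106656082 on the minus strand with 4.89 kb of exons, and Grm3 lies on chromosome 5 from 9485541 to 9725170 on the minus strand with 3.05 kb. Of the group III genes, Grm4 lies on chromosome 17 from 27422387 to 27521403 on the minus strand, Grm7 on chromosome 6 from 110645581 to 111567230 on the plus strand and Grm8 on chromosome 6 from 27275119 to 28135178 on the minus strand. The span from first to last base differed widely, from 13 kb for Grm2 to 921.6 kb for Grm7. Another annotated gene overlaps 470 exonic bases of Grm2 (9.60% of its exons, Gm28111), 130 bases of Grm7 (2.21%, Gm20387) and 96 bases of Grm8 (0.970%, Mir592). The sources used here do not state whether reads were counted by strand, so reads in these stretches cannot be assigned to one gene.

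Each library held 11980405 to 26953695 counts assigned to genes, with a mean of 18838648, and no pair of libraries within a group was alike enough to be a copy. The summed excitatory neuron markers stood at 10294 CPM (counts scaled to a common library total) in cytosolic and 12104 CPM in membrane-bound Camk2a libraries, against 6431 and 8011 CPM in input. Relative to input, 10 of 10 astrocyte markers and 6 of 6 markers of oligodendrocyte precursors were lower by a fold of at least 2 in the Camk2a capture in both fractions. The depletion was not complete: the summed astrocyte level ranged from 181 to 374 CPM in the cytosolic and from 1923 to 4680 CPM in the membrane-bound Camk2a libraries, and no marker in the list was at 0. Mice 19 and 12 stood apart in the pS6 capture, with astrocyte sums of 13762 and 12316 CPM in the membrane-bound fraction against a median of 5598 CPM. Mouse numbers 1 to 11 are all untrained, 12 to 22 are all trained, and 23 to 30 hold 2 mice of each group. The labels do not say that these runs are batches, but over the first 22 mice run and training cannot be told apart.

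By CPM, which takes no account of gene length, Grm5 had the highest mean of the 6 receptors in each library type. Across 30 mice its level in CPM had a lowest, median and highest value of 143, 192 and 258 in the cytosolic Camk2a libraries, and of 486, 631 and 800 in the membrane-bound ones. In the pS6 capture the same values were 95.4, 125 and 166 in the cytosol and 356, 415 and 509 at the membrane. Input libraries ran from 102 through 136 to 183 and from 271 through 341 to 417. Every membrane-bound library exceeded every cytosolic library for Grm5. The order of means ran from 629 ± 80.1 CPM (SD, n = 30) in membrane-bound Camk2a libraries down to 127 ± 19.2 CPM in cytosolic pS6 libraries, a 4.97-fold span. Within that order, pS6 and input at the membrane lay within their spread of each other, as did input and pS6 in the cytosol.

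Among group II genes, Grm2 followed the same broad order and Grm3 did not. Grm2 had a lowest, median and highest level of 72.7, 90.9 and 113 CPM in cytosolic and of 215, 274 and 385 CPM in membrane-bound Camk2a libraries. In pS6 libraries these were 50.1, 65.8 and 86.0 CPM, and 121, 157 and 202 CPM. Input gave 42.9, 48.7 and 63.5 CPM in the cytosol and 118, 148 and 183 CPM at the membrane. The highest mean of Grm2, 286 ± 45.1 CPM (SD, n = 30), was 5.73-fold its lowest, and only pS6 and input at the membrane lay within their spread of each other.

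Grm3 was highest in the uncaptured membrane-bound libraries, where the lowest, median and highest levels were 98.9, 116 and 142 CPM. In membrane-bound pS6 libraries they were 47.8, 61.8 and 109 CPM, and in membrane-bound Camk2a libraries 36.9, 50.1 and 78.7 CPM. Cytosolic libraries were low throughout, at 17.5, 21.5 and 30.9 CPM in input, 8.88, 12.7 and 21.6 CPM in the Camk2a capture and 7.80, 11.3 and 17.8 CPM in the pS6 capture. All but the upper end of the pS6 range lay below the input range at the membrane. The span between the highest mean, 116 ± 11.4 CPM (SD, n = 30), and the lowest, 11.7 ± 2.58 CPM, was 9.93-fold, the widest of the 6 genes.

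Of group III, Grm7 was the most abundant, with a lowest, median and highest level of 29.4, 40.1 and 53.4 CPM in cytosolic and 77, 93.2 and 122 CPM in membrane-bound Camk2a libraries. It stood at 22.4, 31.1 and 39.6 CPM and at 54.2, 67.3 and 82.7 CPM in the pS6 capture, and at 21.3, 26.5 and 38.8 CPM and at 56.5, 65.6 and 81.4 CPM in input. Grm4 means ranged from 9.65 ± 1.19 CPM (SD, n = 30) in cytosolic input to 35.7 ± 9.50 CPM in membrane-bound Camk2a libraries, a 3.70-fold span. Grm8 was the lowest of the 6, with means from 3.34 ± 0.825 CPM in cytosolic pS6 to 15.6 ± 3.54 CPM in membrane-bound Camk2a libraries. For Grm4 and Grm8, types next to each other in the order overlapped within 1 SD on each side, except between the lowest membrane-bound and the highest cytosolic type. For Grm7 the membrane-bound Camk2a libraries stood above pS6 and input by more than the summed SD.

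**Figure D1:**
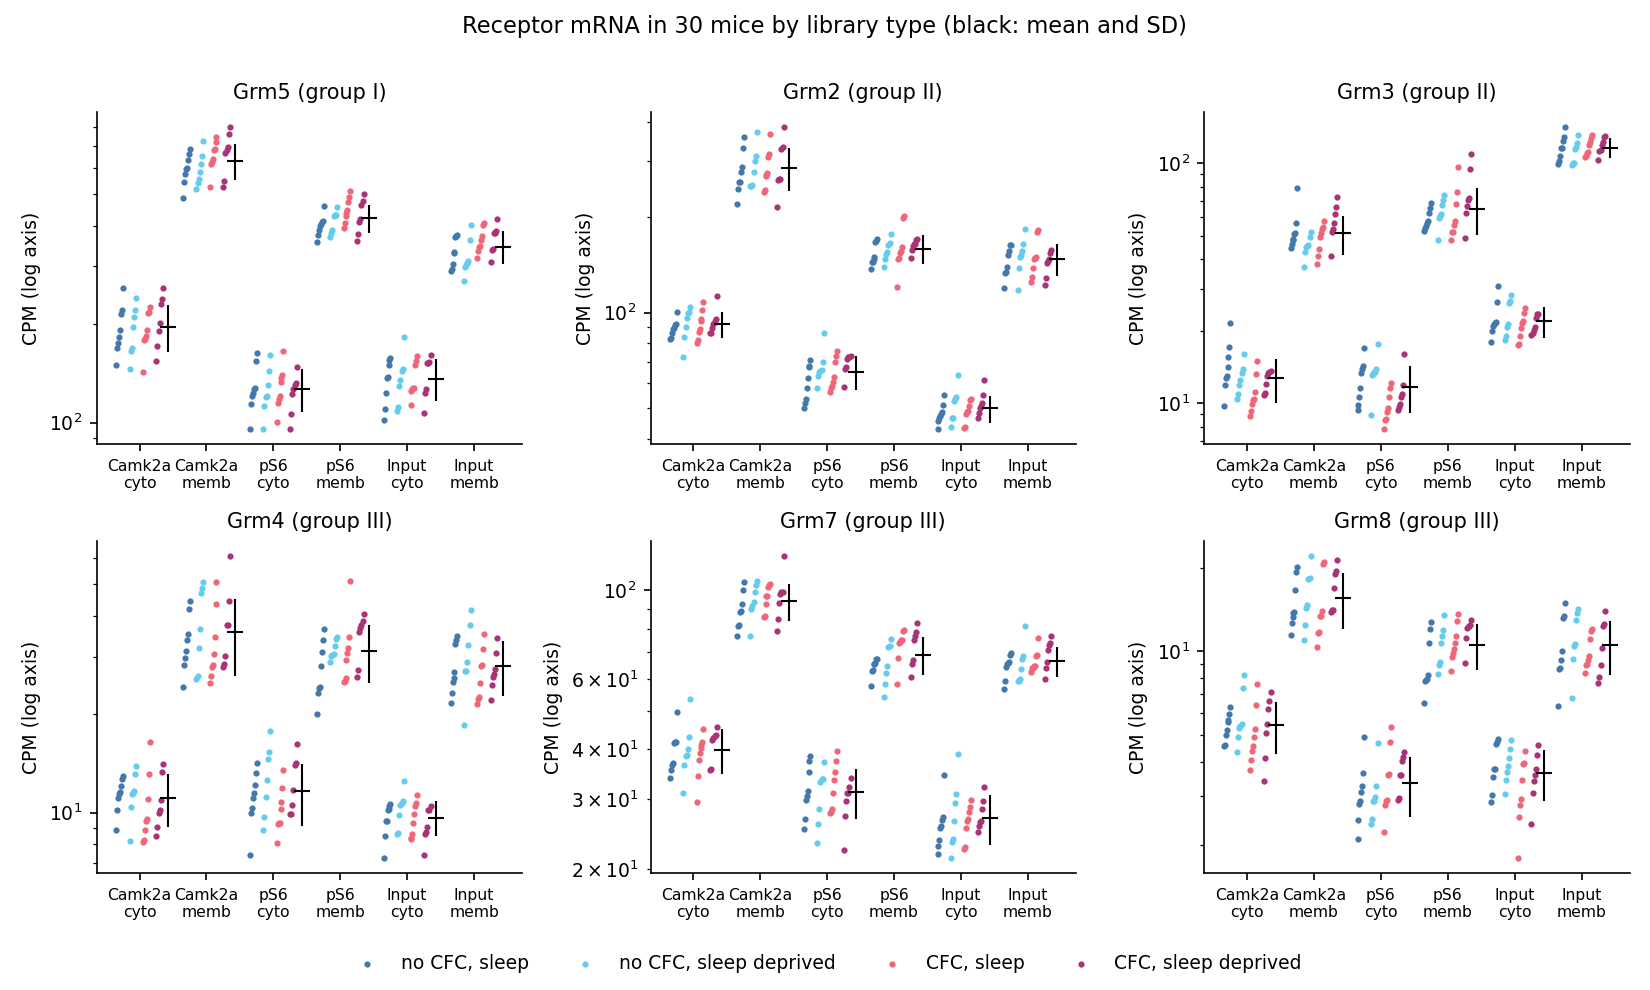
Level of each receptor gene in CPM on a log axis, one panel per gene, for 30 mice in each of the 6 library types; points are mice, coloured by training and sleep group. Within each kind of RNA the membrane-bound libraries sit higher in all 6 panels, though for Grm8 cytosolic Camk2a libraries reach 8.22 CPM and membrane-bound input goes down to 6.33 CPM, and Grm3 alone has its highest values in the membrane-bound input, at 98.9 to 142 CPM.

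Levels of different genes were compared per kb of exon. In cytosolic Camk2a libraries Grm5 stood at 19.2 ± 3.13 CPM per kb (SD, n = 30) and Grm2 at 18.8 CPM per kb, with Grm7 at 6.77, Grm3 at 4.17, Grm4 at 1.85 and Grm8 at 0.548 CPM per kb. Grm5 was above Grm2 in 18 of 30 of these libraries, so the 2 leading receptors did not separate. In membrane-bound input, Grm3 led at 38.1 ± 3.73 CPM per kb, followed by Grm5 at 33.7 ± 3.82 and Grm2 at 30.1 ± 3.56 CPM per kb. Grm3 made up 32.0% of the summed receptor level per kb there, against 10.5% in membrane-bound and 8.13% in cytosolic Camk2a libraries.

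By pharmacological group, per kb, Grm5 as group I made up 38.4% ± 3.40 (SD, n = 30) of the 6-gene sum in membrane-bound Camk2a libraries and 28.3% ± 2.45 in membrane-bound input. Group II made up 46.9% ± 3.26 and 57.4% ± 2.28 in the same libraries, and group III 14.7% ± 0.769 and 14.3% ± 0.798. In the other 4 types the group II share lay between 44.9% and 47.5% on average. Group III was largest in cytosolic pS6 libraries, at 20.5% ± 1.18.

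The balance inside group II turned over between library types. The ratio of Grm2 to Grm3 per kb averaged 4.67 ± 0.947 (SD, n = 30; 2.58 to 6.63) in cytosolic and 3.58 ± 0.744 (1.85 to 5.19) in membrane-bound Camk2a libraries. It was 3.64 ± 0.968 in cytosolic pS6, 1.59 ± 0.335 in membrane-bound pS6 and 1.44 ± 0.236 in cytosolic input libraries. In membrane-bound input it was 0.795 ± 0.101 (0.644 to 1.05), with Grm2 above Grm3 in 1 of 30 mice. Inside group III the order did not turn over: Grm7 exceeded Grm4 per kb in 30 of 30 mice in each library type, with mean ratios from 2.30 to 3.80.

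**Figure D2:**
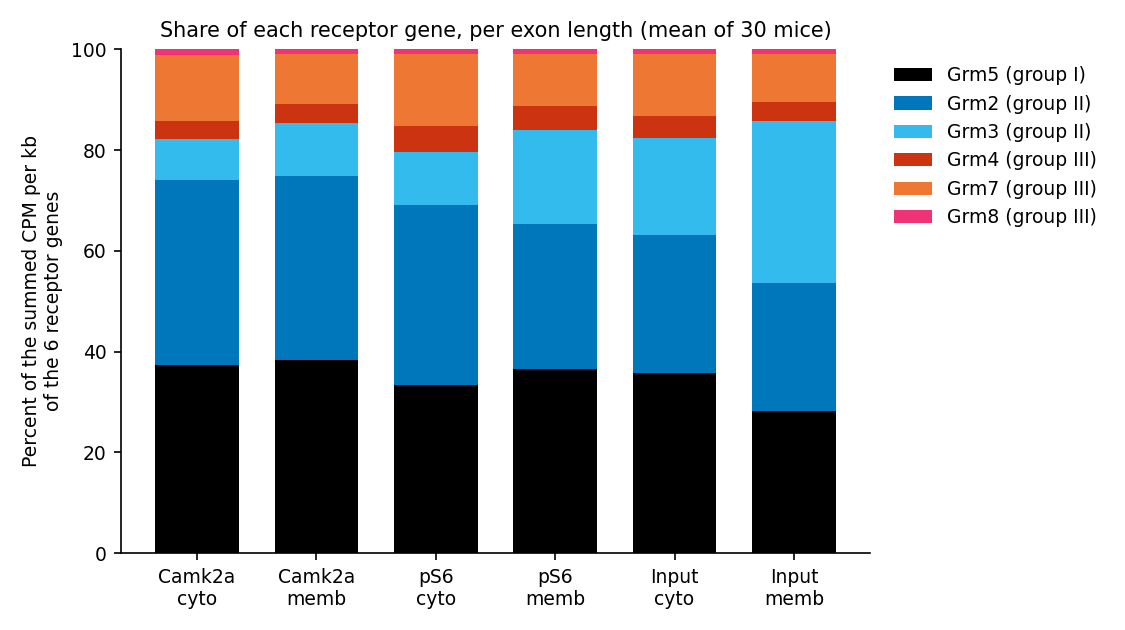
Share of each receptor gene in the summed CPM per kb of exon of the 6 genes, in percent, for the 6 library types (means of 30 mice, stacked to the whole). The Grm3 share is 8.13% in cytosolic Camk2a libraries and 32.0% in membrane-bound input, while Grm8 stays near 1% in each type.

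All 6 receptors were higher in the membrane-bound than in the cytosolic fraction, in each of the 3 kinds of RNA, by a fold of at least 2 at an adjusted p under 0.05 (18 of 18 tests). Each difference had the same direction in 30 of 30 mice. Among all genes tested, 27.9% rose by this rule in the Camk2a capture, 25.3% in the pS6 capture and 22% in input. The median log2 difference of the 6 receptors was 1.69, 1.6 and 1.41, against -0.07, -0.03 and -0.12 over all genes. Group II's Grm3 had the widest gap in each, at a log2 difference of 2.04 ± 0.06 (SE; adjusted p = 4.73e-40), 2.52 ± 0.07 and 2.26 ± 0.05. The summed astrocyte markers also stood higher at the membrane, at 2917 against 258 CPM in Camk2a libraries, 6069 against 739 CPM in pS6 libraries and 8192 against 1407 CPM in input; their part in the Grm3 difference was not tested. Both fractions came from the same mice. Between mice or groups, more cells of a type and more RNA per cell cannot be told apart in bulk RNA.

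Grm2, the other group II gene, differed by 1.67 ± 0.05 on the log2 scale (SE) in the Camk2a capture, 1.33 ± 0.04 in the pS6 capture and 1.42 ± 0.04 in input. Grm5 of group I differed by 1.71 ± 0.05, 1.79 ± 0.05 and 1.2 ± 0.05. In group III, Grm4 differed by 1.72 ± 0.08, 1.48 ± 0.07 and 1.41 ± 0.06, and Grm8 by 1.56 ± 0.08, 1.72 ± 0.08 and 1.40 ± 0.08. Grm7 had the smallest membrane excess each time, at 1.27 ± 0.04, 1.19 ± 0.05 and 1.17 ± 0.04. Scaled to total counts alone, Grm7 in the pS6 capture (0.96) and Grm5 (0.94) and Grm7 (0.90) in input stayed under the fold of 2. That scaling moved the median of all genes to -0.33 in the Camk2a capture. Relative to the all-gene median, the receptor median was 1.76 with either scaling there.

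The genes that carry the receptors' signal went both ways between the fractions, as did genes at large. Of 57 listed pathway genes, 19 were higher and 8 lower at the membrane in the Camk2a capture, 20 and 7 in the pS6 capture, and 17 and 7 in input. Among all genes 27.9%, 25.3% and 22% were higher in these comparisons, and 10.2%, 9.96% and 8.97% were lower. With total counts alone the pathway counts were 17 and 12, 16 and 10, and 10 and 12, so in input the balance turned. The adenylyl cyclases, which are multi-pass membrane proteins and targets of Gi/o, rose in 5 of 5 cases in each capture and in input (4 of 5 in the pS6 capture with total counts alone); in the Camk2a capture Adcy9 differed by 2.15, Adcy5 by 2.07 and Adcy1 by 1.88 on the log2 scale. Of 14 effectors of group I, 7, 7 and 5 were higher and none was lower; with total counts alone 6, 6 and 0 were higher. They included in the Camk2a capture Plcb3 (2.14), a phospholipase C, the channel genes Kcnq3 (1.80) and Trpc5 (1.61), Dagla (1.44), which makes the endocannabinoid 2-AG, and its receptor gene Cnr1 (1.42).

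Scaffolds and binding partners went both ways, with 6 higher and 3 lower of 16 in the Camk2a capture, where 27.9% of all genes were higher and 10.2% lower. With total counts alone 5 were higher and 5 lower. Shank1, a postsynaptic scaffold, differed by 2.21 ± 0.07 (SE, log2), and Elfn1 and Elfn2, adhesion proteins that bind group III receptors across the synapse, by 2.07 ± 0.06 and 1.71. Homer1, which ties group I receptors to Shank and to IP3 receptors, was lower at the membrane by -1.01 ± 0.04, -1.41 ± 0.05 and -1.16 ± 0.03 in Camk2a, pS6 and input RNA. Of 8 regulators, 3 were lower and none higher each time: Rgs4 at -1.76 ± 0.04, Rgs7 at -1.23 and Rgs14 at -1.10 in the Camk2a capture, all of which speed up the shut-off of G proteins. Among the 6 G protein genes Gnai1 was lower, at -1.21 in the Camk2a capture and -1.23 in the other 2 kinds of RNA. Gnai2 was higher, at 1.34 in the pS6 capture and 1.04 in input, and stayed under the fold of 2 in the Camk2a capture (0.84). With total counts alone its input value (0.78) was also under the fold of 2.

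The captures were compared with input within each fraction, over the same 30 mice. Grm3 was lower than input in the membrane-bound Camk2a libraries, by a log2 difference of -1.2 ± 0.05 (SE; adjusted p = 3.25e-33), and in the cytosolic pS6 libraries, by -1.03 ± 0.06 (adjusted p = 1.01e-24). In both it was lower than input in 30 of 30 mice. It was the only receptor to pass the fold of 2 in any of the 6 capture comparisons. Among all genes, 16.8% were lower in the first of these and 8.84% in the second; in either direction Camk2a differed from input in 16.8% of genes in the cytosol and 18.7% at the membrane, and pS6 in 20.2% and 10.8%. The pS6 value lay so near the threshold that it was lost with another scaling (-0.998 with RLE size factors, and -0.999 in DESeq2). In cytosolic Camk2a libraries Grm3 stood at -0.95 ± 0.06, just short of the threshold, and passed it at -1.09 with total counts alone. In membrane-bound pS6 libraries it stood at -0.84 ± 0.06.

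The glial marker lists were compared with input in the same way. The median log2 difference from input of the 10 astrocyte markers was -3.42 in cytosolic and -1.95 in membrane-bound Camk2a libraries, and -1.05 and -0.77 in the pS6 libraries, where 6 and 1 of 10 were called lower. Gja1, the astrocyte gap junction gene, was lower by -4.05 ± 0.07 and -2.18 ± 0.06 in the 2 Camk2a comparisons. For the 6 precursor markers the median was -3.68 and -1.86 in Camk2a libraries. The part of these markers in the Grm3 differences was not tested. In the membrane-bound pS6 libraries of mice 19 and 12, whose astrocyte sums were the highest of 30, Grm3 stood at 109 and 96.4 CPM, also the highest of 30. In their cytosolic pS6 libraries, where their astrocyte sums of 1933 and 1491 CPM were again the highest, Grm3 stood at 15.99 and 11.6 CPM, ranks 3 and 14 of 30, with a median of 11.3 CPM. Without these mice the Grm3 differences of pS6 from input were -1.06 in the cytosol and -0.89 at the membrane, and its membrane excess in pS6 RNA was 2.5.

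**Figure D3:**
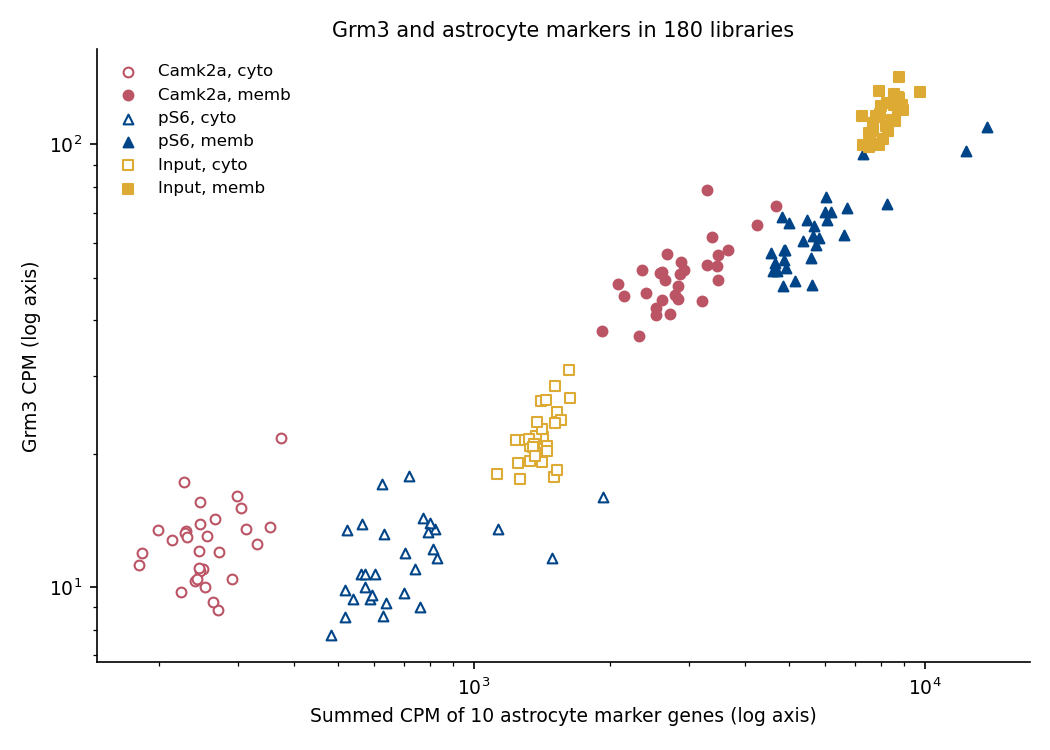
Grm3 level against the summed level of 10 astrocyte markers, both in CPM on log axes, in 180 libraries coloured by library type. Membrane-bound libraries lie to the upper right; within the pS6 capture the 2 libraries farthest to the right, at 12316 and 13762 CPM of markers, are those with Grm3 at 96.4 and 109 CPM.

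The other receptors were above input in the Camk2a capture, none by a fold of 2. Grm2 stood at 0.72 ± 0.03 (SE, log2) in the cytosol and 0.95 ± 0.05 at the membrane, Grm5 at 0.37 ± 0.05 and 0.86 ± 0.04, Grm8 at 0.42 ± 0.08 and 0.55 ± 0.08, and Grm7 at 0.41 ± 0.04 and 0.49 ± 0.04. For these 4 genes the Camk2a library exceeded the input of the same mouse in 30 of 30 mice in both fractions, with adjusted p from 1.63e-28 to 2.25e-06. Only 0.371% of all genes passed the fold of 2 upwards in the cytosol and 1.9% at the membrane. Grm4 was the exception, at 0.05 ± 0.06 in the cytosol (adjusted p = 0.495), a sign that turned to -0.09 with total counts alone, and 0.33 ± 0.08 at the membrane. Markers of inhibitory neurons, which this Cre line should not label, were called lower than input in 11 of 12 cases in cytosolic and in 9 of 12 in membrane-bound Camk2a libraries.

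Between the 2 captures, the receptors other than Grm3 and Grm4 had lower values in pS6 than in Camk2a RNA. Relative to Camk2a, Grm2 stood at -0.57 ± 0.04 (SE, log2) in the cytosol and -0.85 ± 0.05 at the membrane, Grm5 at -0.71 ± 0.06 and -0.58 ± 0.04, Grm8 at -0.78 ± 0.08 and -0.56 ± 0.07, and Grm7 at -0.43 ± 0.05 and -0.45 ± 0.04. Grm3 stood at -0.19 ± 0.07 in the cytosol and 0.35 ± 0.06 at the membrane (0.29 without mice 12 and 19), where it was higher in the pS6 library of 28 of 30 mice. Grm4 differed by -0.01 ± 0.07 in the cytosol (adjusted p = 0.939), a sign that turned to 0.05 with RLE size factors and in DESeq2 and to 0.16 with total counts alone, and by -0.19 ± 0.08 at the membrane. None passed the fold of 2, which 30.7% and 17.9% of all genes did in either direction. Of the astrocyte markers, 9 of 10 and 6 of 10 were called higher in pS6 than in Camk2a libraries. The dentate granule markers summed to 340 CPM in cytosolic pS6 and 740 CPM in cytosolic Camk2a libraries, and to 538 and 1029 CPM at the membrane; their part in the Grm2 values was not tested.

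Relative to input, pS6 libraries held Grm5 at -0.23 ± 0.05 (SE, log2) in the cytosol and at 0.30 ± 0.04 at the membrane, a change of sign with fraction. Grm2 stood at 0.26 ± 0.04 and 0.11 ± 0.04, Grm4 at 0.15 ± 0.06 and 0.16 ± 0.07, and Grm8 at -0.25 ± 0.08 and 0.00 ± 0.08. Grm7 lay at 0.09 ± 0.05 (adjusted p = 0.0755) and 0.05 ± 0.03 (adjusted p = 0.165). In all, 31 of the 36 capture tests had an adjusted p under 0.05, and 2 also passed the fold of 2. By the adjusted p alone, 81.7% and 82.7% of all genes passed for Camk2a against input in the cytosol and at the membrane, 85.1% and 75.5% for pS6 against input, and 89.8% and 82.3% for pS6 against Camk2a, so the 31 are near the share of genes at large.

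**Figure D4:**
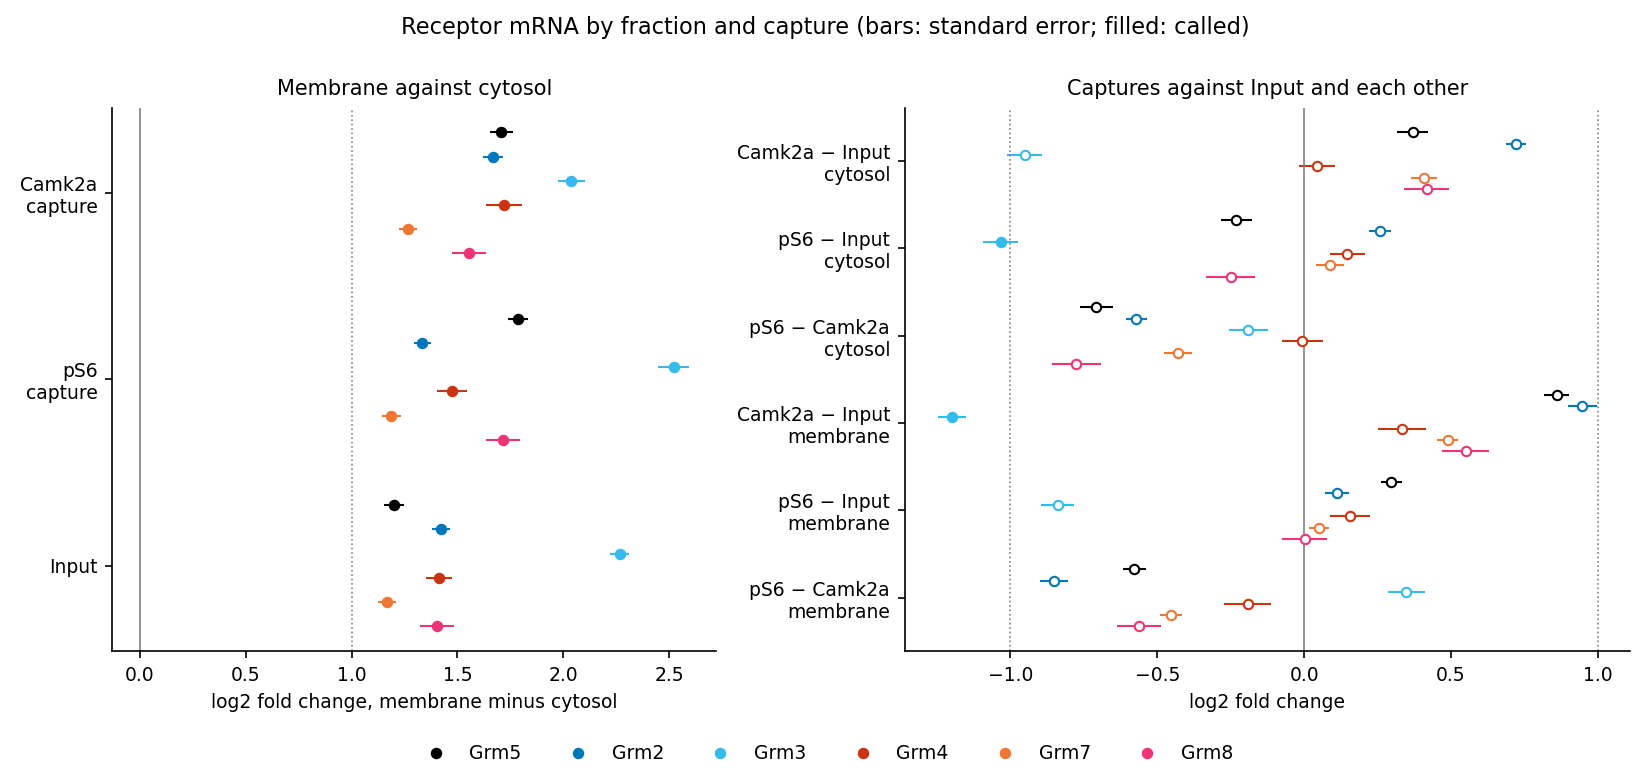
Log2 differences with standard errors (bars) for the 6 receptor genes, between fractions in each kind of RNA and between captures in each fraction. Filled points passed an adjusted p of 0.05 and a fold of 2. All 18 fraction differences are filled, while among capture differences only Grm3 is, at -1.2 and -1.03.

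Whether the membrane excess itself depended on the capture was tested with an interaction of fraction and capture. For Grm5 the excess was larger in Camk2a RNA than in input by 0.38 ± 0.07 (SE, log2; adjusted p = 2.54e-06), and larger in pS6 RNA than in input by 0.58 ± 0.07 (adjusted p = 1.67e-13) and than in Camk2a RNA by 0.19 ± 0.07 (adjusted p = 0.0200). For Grm3 it was smaller in Camk2a RNA than in input by -0.36 ± 0.08 (adjusted p = 2.90e-05), and larger in pS6 than in Camk2a RNA by 0.60 ± 0.09 (adjusted p = 3.54e-08) and than in input by 0.25 ± 0.09 (adjusted p = 0.0105). Grm2 had a smaller excess in pS6 than in Camk2a RNA, by -0.22 ± 0.06 (adjusted p = 0.00147). Grm8 had a larger one in pS6 RNA than in input, by 0.31 ± 0.12 (adjusted p = 0.0230), and than in Camk2a RNA, by 0.27 ± 0.11 (adjusted p = 0.0353). Of 18 such tests 9 had an adjusted p under 0.05, none of them for Grm4 or Grm7. Over all genes the share was 56.2% for Camk2a against input, 47.7% for pS6 against input and 50.2% for pS6 against Camk2a, so the receptors' count is near that of genes at large. None reached the fold of 2 that 8.21%, 4.14% and 5.07% of all genes reached in these comparisons. Of the 10 astrocyte markers, Gja1 had a larger membrane excess in Camk2a RNA than in input, by 1.77 ± 0.10. The 10 markers summed to 2917 CPM at the membrane and 258 CPM in the cytosol in Camk2a RNA, and to 8192 and 1407 CPM in input. Their part in the Grm3 values was not tested.

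No receptor gene passed the test for sleep deprivation. At an adjusted p of 0.05 the count was 0 of 36 tests, both in edgeR and in DESeq2, and 2 had an unadjusted p under 0.05. Among all genes SD changed 6.28% in cytosolic and 2.97% in membrane-bound Camk2a libraries, 7.88% and 1.73% in pS6 libraries, and 3.17% and 1.37% in input. The log2 differences of the receptors ranged from -0.07 for Grm7 to 0.24 for Grm4, both in cytosolic pS6 libraries. The largest fold that any 95% interval allowed was 1.14 for Grm5, 1.2 for Grm2, 1.30 for Grm3, 1.37 for Grm4, 1.16 for Grm7 and 1.29 for Grm8.

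Both of the smaller p-values came from cytosolic pS6 libraries. Grm2 had a lowest, median and highest level there of 50.1, 60 and 71.1 CPM in untrained sleeping mice, 57.8, 65.7 and 86.0 in untrained SD mice, 56.4, 61.7 and 75.9 in trained sleeping mice and 58.4, 71.6 and 73.1 in trained SD mice. The groups overlapped, with 12 of 14 SD mice above the median of the sleeping mice, and the difference was 0.15 ± 0.05 (SE, log2; adjusted p = 0.0892). Within the 3 runs of mouse numbers it was 0.19, 0.05 and 0.18. Grm4 averaged 11.2 ± 2.08 CPM (SD, n = 8) and 12.8 ± 3.21 CPM (n = 7) in untrained sleeping and SD mice, and 10.3 ± 1.74 CPM (n = 8) and 12.4 ± 2.48 CPM (n = 7) in trained ones. Its difference of 0.24 ± 0.10 (adjusted p = 0.125) was 0.06, 0.12 and 0.54 within the runs.

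Among the pathway genes, SD changed few. Arc, an immediate early gene whose protein drives the uptake of AMPA receptors, rose by 0.41 ± 0.09 and 0.44 ± 0.09 (SE, log2) in cytosolic and membrane-bound Camk2a libraries, by 0.51 ± 0.10 in cytosolic pS6 libraries and by 0.31 ± 0.08 and 0.34 ± 0.08 in input. Homer1 rose by 0.20 ± 0.05 in membrane-bound Camk2a libraries and by 0.39 ± 0.07 and 0.40 ± 0.07 in the 2 pS6 fractions; gene counts do not separate its short, activity-induced form from the long ones. Rgs4 rose by 0.36 ± 0.05 and 0.26 ± 0.06 in the pS6 fractions. Elfn1, which also stands in the list of inhibitory neuron markers, rose by 0.27 ± 0.07 in membrane-bound Camk2a and 0.27 ± 0.08 in cytosolic pS6 libraries. Of the 57 genes, 1 rose and 1 fell (Rgs2, -0.14 ± 0.04) in cytosolic Camk2a libraries, and 3 and 0 at the membrane. The counts were 6 and 1 in cytosolic pS6, 2 and 0 in membrane-bound pS6, and 1 and 0 in each input fraction. Of all genes, 6.28% changed in either direction in cytosolic and 2.97% in membrane-bound Camk2a libraries. These shares were 7.88% and 1.73% in pS6 libraries, and 3.17% and 1.37% in input. In cytosolic pS6 libraries, where 4.6% of all genes rose, the astrocyte sum averaged 617 CPM in untrained sleeping, 808 in untrained SD, 721 in trained sleeping and 831 in trained SD mice; its part in these values was not tested.

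Fear conditioning changed 1 receptor in 1 library type by the adjusted p, and that call depended on the settings. Grm7 in membrane-bound pS6 libraries averaged 64.3 ± 3.21 CPM (SD, n = 8) in untrained sleeping, 65.6 ± 8.05 CPM (n = 7) in untrained SD, 72.9 ± 6.89 CPM (n = 8) in trained sleeping and 72.3 ± 8.03 CPM (n = 7) in trained SD mice. The groups overlapped, from 54.2 to 75.7 CPM without and from 58.3 to 82.7 CPM with training. The log2 difference was 0.14 ± 0.05 (SE; adjusted p = 0.0455), and 13 of 15 trained mice lay above the untrained median. Among all genes 8.1% rose in this comparison and 16.8% changed in either direction. The call was lost with total counts alone (0.11, adjusted p = 0.165), without a filter on low counts (0.15, adjusted p = 0.0728) and with the run of mouse numbers as a term (0.23, adjusted p = 0.452). Within mice 23 to 30, the only run with both arms, the difference was 0.26. Without mice 12 and 19 it was 0.16 (adjusted p = 0.0431). The other receptors were higher with CFC in mice 23 to 30 as well, from 0.12 for Grm3 to 0.45 for Grm4. In the fit of all mice Grm8 (0.18 ± 0.10), Grm3 (0.16 ± 0.10) and Grm4 (0.15 ± 0.09) had larger differences than Grm7. Their standard errors were wider, and they did not pass.

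The other receptors did not pass the adjusted test for CFC, where 17% of all genes changed in membrane-bound Camk2a libraries, 6.53% in membrane-bound input, and 0.148%, 0.133% and 0.219% in cytosolic Camk2a, pS6 and input libraries. Grm3 in cytosolic pS6 libraries averaged 12.5 ± 2.61 and 13.5 ± 2.54 CPM in untrained sleeping and SD mice, and 9.78 ± 1.56 and 11.2 ± 2.27 CPM in trained ones. Its difference was -0.30 ± 0.09 (SE, log2; adjusted p = 0.335), with 1 of 15 trained mice above the untrained median. It was -0.40 within mice 23 to 30, and -0.38 (adjusted p = 0.0782) without mice 12 and 19. In cytosolic Camk2a libraries Grm3 stood at -0.23 ± 0.09 (adjusted p = 0.520), a sign that turned to 0.06 with the run as a term. Grm5 in membrane-bound input stood at 0.14 ± 0.05 (adjusted p = 0.124), with 14 of 15 trained mice above the untrained median, and at 0.24 within mice 23 to 30. Across the 36 tests the 95% intervals allowed folds of up to 1.41 in either direction.

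**Figure D5:**
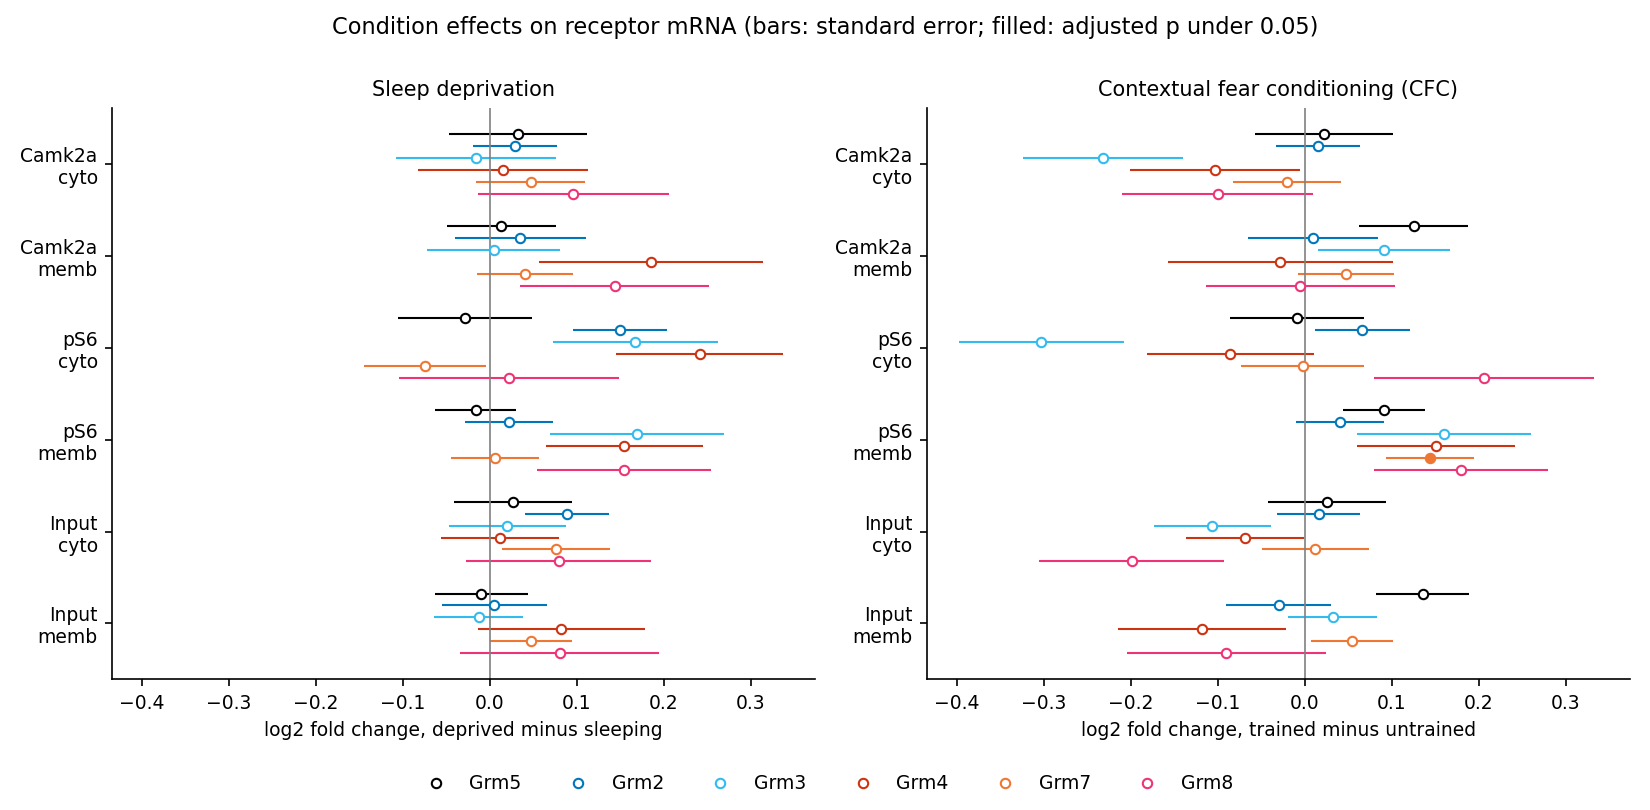
Log2 differences with standard errors (bars) for SD against sleep and for CFC against no CFC, for the 6 receptor genes in the 6 library types. Filled points passed an adjusted p of 0.05. The 95% intervals, which are wider than the bars and not drawn, lie between -0.50 and 0.47. The only filled point is Grm7 in membrane-bound pS6 libraries under CFC, at 0.14.

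Pathway genes that changed with CFC did so in the membrane-bound types. In membrane-bound pS6 libraries 4 of 57 rose and 17 fell, where 8.75% of all genes fell. Homer1 rose by 0.39 ± 0.07 (SE, log2), Cav1, the caveolin gene, by 0.38 ± 0.11, Gnai3 by 0.25 ± 0.08 and Cnr1 by 0.17 ± 0.05. Those that fell included the scaffolds Shank3 at -0.31 ± 0.06, Shank2 at -0.31 ± 0.07 and Shank1 at -0.27 ± 0.08, and the translation-linked Map1b at -0.38 ± 0.06, Mtor at -0.33 ± 0.08 and Cyfip1 at -0.28 ± 0.05. In membrane-bound Camk2a libraries 3 rose and 5 fell, a balance that depended on the settings (1 and 11 with total counts alone, 3 and 0 without a filter, 6 and 8 in DESeq2), in membrane-bound input 0 and 3, and in each cytosolic type 0 and 0. With the run of mouse numbers as a term, none of the 57 passed in any type, and without mice 12 and 19 the membrane-bound pS6 counts were 6 and 14. The astrocyte sum in membrane-bound pS6 libraries averaged 5124 and 6121 CPM in untrained sleeping and SD mice and 6061 and 7106 CPM in trained ones. The summed blood markers, of which 4 of 5 rose with CFC there, averaged 676 and 704 CPM in untrained and 969 and 1021 CPM in trained mice, and the microglia markers, of which 1 of 6 rose, 435 and 465 CPM and 530 and 490 CPM. The part of these markers in the pathway values and in that of Grm7 was not tested.

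No receptor passed the test of whether training altered the SD difference (0 of 36 in edgeR and in DESeq2; 1 had an unadjusted p under 0.05), and neither did any gene of the whole table in any library type with either tool, a background of 0%, although 295 to 712 genes had an unadjusted p under 0.05. The smallest p was that of Grm3 in membrane-bound Camk2a libraries. It averaged 53.0 CPM in untrained sleeping and 45.2 CPM in untrained SD mice, and 48.6 and 57.5 CPM in trained ones, an interaction of 0.46 ± 0.15 (SE, log2; adjusted p = 1.00). The astrocyte sum in the same libraries averaged 2670, 2524, 2972 and 3530 CPM in the same order; its part was not tested. The 95% intervals of these 36 tests allowed folds of up to 1.71. Whether SD acted differently in the pS6 and Camk2a captures was tested in both fractions, with 0 of 12 receptor tests passing in edgeR and in DESeq2 and none with an unadjusted p under 0.05, against 0.586% of all genes in the cytosol and 0.0589% at the membrane.

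Genes with the profile nearest to each receptor over the 6 library types were found by the root mean square difference of centred log2 CPM means, among 12525 genes. Nearest to Grm5 were Atp2b2 (0.03), a plasma membrane calcium pump gene, Chgb (0.07) and Dync1i2 (0.07). Among those near Grm2 were Agrn (0.06) and Syt5 (0.08). Grm3 had no neighbour as close: Stom stood at 0.10, and Paqr8 and Slc4a4, a sodium bicarbonate cotransporter gene, at 0.14. For group III, Slc35a1 (0.02), Mesd and Tmem178 were nearest to Grm4, St6galnac5 (0.03), Ndst3 and Cdh8 to Grm7, and Slc24a3 (0.04), Apmap and Pcdhb16 to Grm8. Between the receptors themselves, Grm5 and Grm8 were 0.10 apart, whereas Grm3 was 0.69 to 0.90 from each of the others.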

How the data were processed

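The values are raw counts per gene, which the authors deposited as one table of 54429 genes by 180 libraries. SMART-seq v4 libraries were aligned with STAR 2.6.1a and counted with featureCounts on GRCm38.p6, per the submitters' processing notes; the version of featureCounts, the annotation and the use of strand are not given in the sources used here. Groups and mouse numbers come from the labels, and each number is taken as one mouse. Depth was 11980405 to 26953695 counts.

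From the counts, differences were fitted across all genes with edgeR 4.0.16 (R 4.3.3; TMM scaling, filterByExpr, robust quasi-likelihood test, Benjamini-Hochberg adjustment over all genes tested). SD and CFC were fitted in one model of the 4 groups within each library type, as averages over the other factor. Fractions and captures were fitted within the 60 libraries compared. A call needed an adjusted p under 0.05, and for fractions, captures and their interaction also a fold of 2. Standard errors are the log2 difference divided by the square root of F. The edgeR fit and test were tried on simulated data only for SD in cytosolic Camk2a libraries and for the fractions of the Camk2a capture. CPM uses TMM factors over all 180 libraries, so ratios of CPM can differ by up to about 0.2 on the log2 scale from fitted differences. Exon lengths are from GENCODE vM21.

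Libraries of one mouse deviated together (median correlation 0.221 for the same mouse, -0.00888 for different mice; 375 of 450 over 0.1), so mouse was tried as a block where fractions or captures were compared. Other alternatives were RLE scaling, total counts, no filter on low counts, DESeq2 1.42.0 and the run of mouse numbers as a term; leaving out mice 12 and 19 was added after seeing the data. Named are the 6 receptors, the 3 genes nearest to each in profile (passing over unnamed genes), and genes of the pathway and marker lists; some genes under this rule are not reported here. The members and lists were chosen with earlier results of these data known.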

Additional observations from a re-analysis of the deposited data

Results flagged for a closer look

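In 8 of 144 groups of 7 or 8 mice, 1 library lay farther from the rest than Dixon's test allows, a rate near the 1 in 20 that chance gives. The level of Grm2 reached 113 CPM in a cytosolic Camk2a library of a trained SD mouse (next 95.9). Grm3 reached 78.7 CPM in a membrane-bound Camk2a library of an untrained sleeping mouse (next 56.5), and 15.99 CPM in a cytosolic pS6 library of a trained SD mouse (next 11.9), which was mouse 19, the mouse with the highest astrocyte sum. Grm4 reached 51.3 CPM in a membrane-bound pS6 library of a trained sleeping mouse (next 34.4). Among untrained sleeping mice Grm7 was as low as 57.5 CPM in a membrane-bound pS6 library (next 62.8) and as high as 34.5 CPM in a cytosolic input library (next 27.1). Grm7 also reached 81.4 CPM in a membrane-bound input library of an untrained SD mouse (next 68.4), and Grm8 reached 4.66 CPM in a cytosolic pS6 library of an untrained SD mouse (next 3.25).

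The membrane excess of 4 receptors differed between kinds of RNA by an interaction test at an adjusted p under 0.05, as did that of 56.2%, 47.7% and 50.2% of all genes (Camk2a against input, pS6 against input, pS6 against Camk2a); none reached a fold of 2. The log2 differences, with mouse as a block changing no call, were 0.38 for Grm5 and -0.36 for Grm3 between Camk2a RNA and input. Between pS6 RNA and input they were 0.58 for Grm5, 0.31 for Grm8 and 0.25 for Grm3. Between pS6 and Camk2a RNA they were 0.60 for Grm3, 0.27 for Grm8, 0.19 for Grm5 and -0.22 for Grm2.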

How the results depend on the processing

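Of 83 receptor results, a part of all the receptor tests, 81 kept their direction and their side of the threshold with RLE size factors. The same number did so in DESeq2 and without a filter on low counts, and 76 with total counts alone. Mouse as a replicate block kept 66 of 66, and leaving out mice 12 and 19 kept 49 of 49. With the run of mouse numbers as a term 14 were kept, 2 turned sign and 1 was weaker. These make up all the results counted under that term. The SD, CFC and training by sleep tests of the receptors numbered 36 each, so most of them are not in this count. The cause of the changes below was not tested. Signs turned for Grm4 in the 2 cytosolic comparisons of the Camk2a capture, with input (-0.0903 with total counts) and with pS6 (0.0540 with RLE, 0.0541 in DESeq2, 0.16 with total counts), for Grm8 in membrane-bound pS6 against input (-0.00294 without a filter), and, with the run of mouse numbers as a term, for CFC on Grm3 in cytosolic Camk2a (0.0636) and Grm8 in cytosolic pS6 libraries (-0.0576). The 1 receptor called under CFC in membrane-bound pS6 libraries became 0 with total counts, without a filter and with the run term. Cytosolic Camk2a against input gave 1 receptor with total counts in place of 0, and cytosolic pS6 against input 0 with RLE and in DESeq2 in place of 1.

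Over all genes, the run term left 0, 1, 2, 12, 0 and 0 genes under CFC (cytosolic and membrane-bound Camk2a, pS6 and input), against 22, 2542, 22, 2803, 35 and 1022 without it, and gave 1 gene in place of 0 for training by sleep in cytosolic input. The replicate block raised SD by capture from 98 to 392 genes in the cytosol and from 10 to 43 at the membrane. DESeq2 gave 57, 55 and 79 genes under CFC in cytosolic Camk2a, pS6 and input, 466 in place of 287 under SD in membrane-bound pS6, and 17 for SD by capture at the membrane. Without a filter, CFC gave 14 in cytosolic Camk2a and 20 in cytosolic input, SD 322 in place of 506 in cytosolic input, and SD by capture 16 at the membrane. The fraction comparisons then gave 10437 (Camk2a) and 13360 (pS6) in place of 6025 and 6305. In the cytosol Camk2a against input gave 7088, pS6 against input 6979 and pS6 against Camk2a 9096, in place of 2764, 3459 and 5137; at the membrane these were 6812, 8310 and 9289 in place of 3019, 1855 and 3037. The interactions of fraction and capture gave 2455, 1865 and 1402 in place of 1400, 753 and 918.

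With total counts alone, the share of fraction calls that were higher went from 73.2%, 71.8% and 71.1% to 52.9%, 52.6% and 43.8% (Camk2a, pS6, input), that of CFC calls at the membrane from 57.8%, 48.1% and 55.6% to 41.8%, 34.0% and 34.5%, and that of cytosolic pS6 against Camk2a from 72.8% to 85.8%. With groups of 7 or 8 mice, single mice were not left out in turn. The lowest receptor levels, and so the fewest reads, were those of Grm8, whose cytosolic means were 3.34 to 5.42 CPM.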
